A study of Mus musculus with 9 samples.

Results

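In mouse blood progenitors, 96 genes lay on opposite sides of the empty-vector level when cells carried wild-type GATA2 and when they carried its R396Q form. Of these, 64 were lower with wild type and higher with R396Q, and 32 were higher with wild type and lower with R396Q. The genes were taken from the 18992 transcript clusters with 1 gene symbol, out of 21072 on the array. A gene was taken when all 3 arrays of one form lay below all 3 empty-vector arrays, all 3 arrays of the other form lay above them, and the mean of each form was at least 0.3 from the empty-vector mean on the log2 scale. The genes were thus chosen by these same log2 values of all 3 groups, so their levels are given as a description, no p-value is given for any of them, and counts of them past a test stand beside their background with nothing read from them.

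All groups were bone marrow cells of female C57BL/6 mice, 8 weeks old, that had received 5-fluorouracil at 150 mg/kg; marrow was taken 6 days later and enriched for Lin-Sca+Kit+ cells, the surface type of stem and early progenitor cells. The cells were infected on consecutive days with retrovirus carrying EGFP alone (MIE, the empty vector), EGFP with GATA2 wild type, or EGFP with GATA2 R396Q. GFP-positive cells were sorted after 72 h of culture, and their RNA was read on 9 arrays, 3 per group. The labels call the cells HSC and the tissue Blood. They do not say from which species the GATA2 sequence came, nor whether each array of a group stands for its own mice or culture, so any p-value below measures only the spread between these samples.

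GATA2 is a zinc finger transcription factor that stem cells need for self-renewal and that also takes part in the mast cell, megakaryocyte and early erythroid programs. It binds DNA at GATA letters through its zinc fingers, and R396Q replaces an arginine of the C-terminal finger, the main DNA-binding finger. Germline GATA2 variants in people cause an inherited syndrome of immune deficiency and myeloid neoplasia.

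Values are log2 signals, on which a difference of 1 is a 2-fold difference. The cells kept their own Gata2 gene, and how far the array reads the introduced copy is not known. Gata2 itself read 9.87, 9.67 and 9.65 with empty vector, 11.50, 11.24 and 10.94 with wild type and 10.65, 10.72 and 10.53 with R396Q. It rose by 1.49 with wild type (SE 0.14, 2.81-fold, limma adjusted p = 0.0016) and by 0.90 with R396Q (SE 0.14, 1.87-fold, adjusted p = 0.0394). The R396Q mean lay below the wild-type mean by 0.59 (1.51-fold). That difference missed the limma threshold (adjusted p = 0.0633) and passed it with the replicate number as a block (adjusted p = 0.0222). How much of each introduced form the cells held cannot be read from this signal, and its part in the values below was not tested.

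The array medians ran from 6.06 to 6.19 and no array stood apart on them. Against the label HSC, the stem and progenitor marker Kit read a mean of 12.27 with empty vector, 9.46 with wild type and 10.47 with R396Q, and Cd34 read 13.21, 8.58 and 12.80. The other 2 of the 4 measured, Mecom and Hlf, read 0.40 and 0.87 lower with wild type (limma adjusted p = 0.359 and 0.192). With R396Q they read 0.20 and 0.21 lower (adjusted p = 0.787 and 0.873). With the replicate number as a block, Hlf passed with wild type (adjusted p = 0.026). Erythroid markers rose with wild type (4 of 4 measured, none of them past the threshold with R396Q by limma, with or without the replicate number as a block, 0 at an unadjusted p under 0.05), as did 4 of 4 megakaryocyte and 4 of 4 mast cell markers. With R396Q, 0 of 4 megakaryocyte and 0 of 4 mast cell markers passed by limma, against 1 and 2 at an unadjusted p under 0.05 (all higher). With the block Itga2b (1.23, adjusted p = 0.0358) and Cpa3 (2.00, adjusted p = 0.0244) passed. The summed log2 signal of the mast cell markers was 14.13 to 15.41 with empty vector, 16.59 to 17.27 with wild type and 16.49 to 17.19 with R396Q. This sum follows mostly Cpa3, the brightest of the 4, with means of 14.72, 16.40 and 16.73. With R396Q the others read less high than with wild type: Hdc 1.41 against 4.14, Ms4a2 0.52 against 2.96 and Fcer1a 0.03 against 4.38. Of the neutrophil markers, 4 of 4 fell with wild type and 1 of 4 with R396Q (2 with the block), and of the monocyte markers 4 of 4 and 3 of 4 (4 with the block). As background to these marker counts, 4.64% of all clusters rose and 4.35% fell with wild type by limma, and 0.66% and 0.569% with R396Q. With the block, 17.4% of all clusters passed in either direction with wild type and 3.0% with R396Q. In the group means, the T-cell marker Cd3e and the endothelial marker Cdh5 were dimmer than each array's lower quartile. The B-cell marker Cd79a had means of 6.12 to 6.35, and neither it nor the stromal marker Col1a1 passed the test with either form. Pecam1, which endothelial cells share with many blood cells, was bright at 10.31 with empty vector and rose with R396Q by 1.39 (SE 0.18, adjusted p = 0.0188). The summed log2 signal of the 3 endothelial and stromal markers was 10.16 to 10.57 with empty vector, 9.99 to 10.56 with wild type and 11.58 to 11.88 with R396Q. This sum follows Pecam1. With R396Q, Cdh5 and Col1a1 differed from empty vector by -0.13 and -0.16, neither past the limma threshold (adjusted p = 0.377 and 0.907). The part of all the markers above in the values of the 96 genes was not tested. In bulk RNA, fewer cells of a type and less RNA per cell cannot be told apart.

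Because GATA2 binds GATA letters, the stretch of 250 bases before each gene's start was read on either strand for the letters AGATAA or their variant AGATAG, and for TGATAA or its own variant TGATAG. RefSeq promoters (GRCm38.p6) were matched for 73 of the 96 genes. The letters stood in 14.9% of the 47 promoters of genes lower with wild type, in 11.5% of the 26 promoters of genes higher with wild type, and in 24.3% of all 17491 promoters of this length. The genes' promoters were richer in G and C than the rest, with a median of 62.4% and 60.6% against 55.2%. A match is a description of the letters in this window and not a site.

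Of the genes with such letters, 6 promoters are shown, 3 for each direction, with the GATA letters in capitals, 5′ to 3′ on the gene's own strand. Cpox carries both its matches as TTATCA and CTATCT, the reverse complements of TGATAA and AGATAG, which overlap by a base. Cpox lies at chr16:58669958-58670207 (+), Ces2g at chr8:104961468-104961717 (+), Bcar3 at chr3:122419507-122419756 (+), Simc1 at chr13:54503555-54503804 (+), Casp8 at chr1:58802252-58802501 (+) and Spcs2 at chr7:99858884-99859133 (-).
Cpox: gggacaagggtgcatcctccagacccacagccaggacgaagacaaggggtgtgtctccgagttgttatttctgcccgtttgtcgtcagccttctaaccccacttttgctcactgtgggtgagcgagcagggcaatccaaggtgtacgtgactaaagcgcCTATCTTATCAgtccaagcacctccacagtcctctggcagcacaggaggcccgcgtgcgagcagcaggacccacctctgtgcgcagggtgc
Ces2g: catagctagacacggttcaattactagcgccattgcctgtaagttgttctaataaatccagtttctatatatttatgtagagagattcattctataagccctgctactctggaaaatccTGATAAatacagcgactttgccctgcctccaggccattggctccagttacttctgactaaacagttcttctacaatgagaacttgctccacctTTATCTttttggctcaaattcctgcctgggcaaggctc
Bcar3: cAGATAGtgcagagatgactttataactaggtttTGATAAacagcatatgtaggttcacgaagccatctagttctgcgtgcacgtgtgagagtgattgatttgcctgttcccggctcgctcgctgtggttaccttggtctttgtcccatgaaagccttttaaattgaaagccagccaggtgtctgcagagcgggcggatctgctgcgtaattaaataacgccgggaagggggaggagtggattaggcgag
Simc1: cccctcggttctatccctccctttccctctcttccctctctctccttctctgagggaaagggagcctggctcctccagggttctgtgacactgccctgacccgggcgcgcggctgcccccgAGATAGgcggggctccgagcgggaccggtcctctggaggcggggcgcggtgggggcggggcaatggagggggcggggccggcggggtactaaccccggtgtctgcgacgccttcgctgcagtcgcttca
Casp8: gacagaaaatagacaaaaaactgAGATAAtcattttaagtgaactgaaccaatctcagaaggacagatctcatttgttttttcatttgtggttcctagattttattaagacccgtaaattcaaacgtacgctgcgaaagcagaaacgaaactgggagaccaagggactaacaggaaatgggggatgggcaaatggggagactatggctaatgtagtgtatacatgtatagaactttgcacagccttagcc
Spcs2: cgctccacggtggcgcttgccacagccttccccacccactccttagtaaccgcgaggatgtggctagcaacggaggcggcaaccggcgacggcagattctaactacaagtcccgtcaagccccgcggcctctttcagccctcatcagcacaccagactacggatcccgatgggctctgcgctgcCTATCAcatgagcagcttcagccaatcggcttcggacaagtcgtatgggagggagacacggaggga

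Letters of general promoter elements were counted the same way. The GC box GGGCGG stood in 68.1% and 73.1% of the genes' promoters against 42.7% of all, and the TATA box TATAAA in 4.26% and 7.69% against 12.4%. Cpox and Ces2g are taken up again below as the enzymes with the widest wild-type differences, and Simc1, Casp8 and Spcs2 among the genes lower with wild type.

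Across the 64 genes lower with wild type, the wild-type difference from empty vector had a median of -0.65 and ran from -4.43 to -0.32. Their R396Q difference had a median of 0.58 and ran from 0.31 to 2.00. Over all clusters with 1 symbol both medians were -0.01. The wild-type difference was the larger of the pair in 40 of the 64 genes. Across the 32 genes of the opposite pattern the wild-type difference had a median of 1.12 (0.33 to 6.15) and the R396Q difference a median of -0.50 (-1.82 to -0.32), and wild type differed more in 27 of the 32. Both differences reached 0.5 in 33 and 14 genes, and both reached 1 in 6 and 1.

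**Figure D1:**
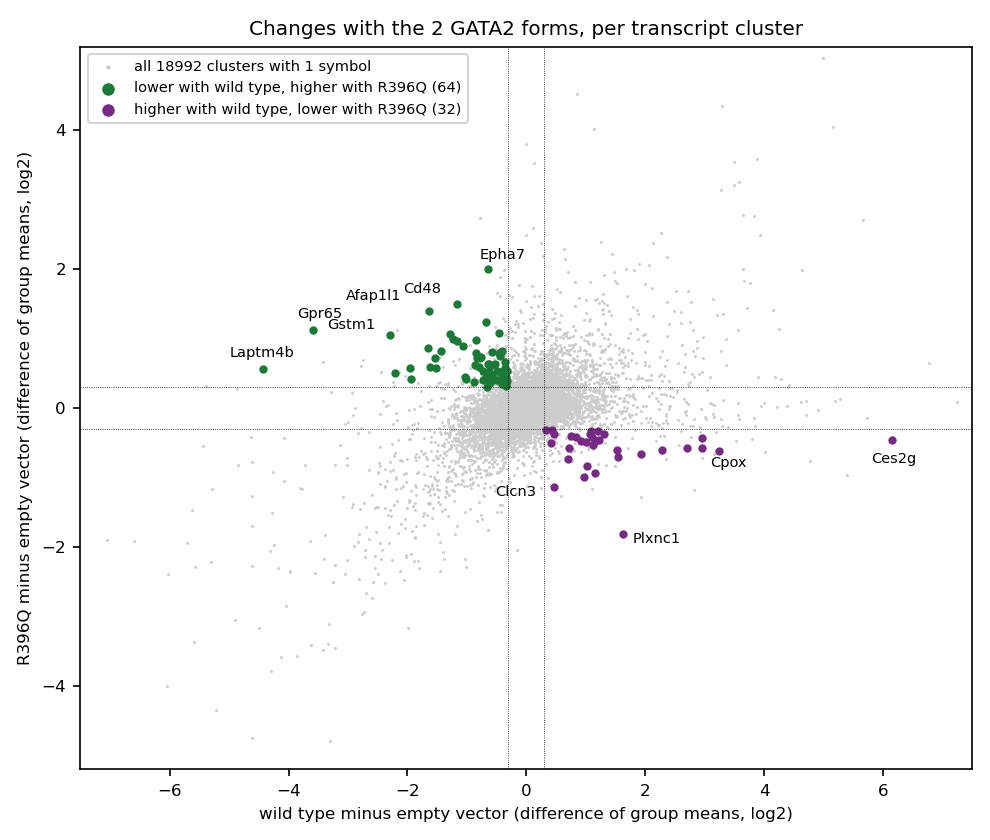
Difference from empty vector with wild type (x axis, log2) against that with R396Q (y axis, log2), 1 point per cluster with 1 symbol; dotted lines mark 0.3. The 64 genes at upper left reach from -4.43 (Laptm4b) on the x axis to 2.00 (Epha7) on the y axis, and the 32 at lower right reach 6.15 (Ces2g) and -1.82 (Plxnc1); the empty-vector arrays enter both axes.

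The rule had used each of the following contrasts, so these counts are given beside their background and nothing is read from them. In limma, 37 of the 64 genes fell with wild type (background 4.35% of all 21072 clusters fell), 14 of the 64 rose with R396Q (background 0.66%), and 62 of the 64 were higher with R396Q than with wild type (background 2.67%). Of the 32 genes of the opposite pattern, 19 rose with wild type (background 4.64%) and 31 were lower with R396Q than with wild type (background 3.08%). In R396Q against empty vector 0 of the 32 passed (background 0.569%); 18 had an unadjusted p under 0.05, and 0 to 3 passed under the other settings of limma. Both directions together, 56 genes passed for wild type against empty vector (background 8.99%), 14 for R396Q against empty vector (background 1.23%) and 93 for R396Q against wild type (background 5.75%). With the replicate number as a block these became 75 (background 17.4%), 23 (background 3.0%) and 96 (background 13.1%), and 1 of the 32 was then among the 23. By the rule itself, 0.337% of the 18992 clusters showed the first pattern and 0.168% the opposite one, 0.505% in all. When each form was instead required to lie on its side of the empty-vector array of the same number, 133 and 83 clusters qualified, including all 64 and all 32.

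Without the limit of 0.3, the first pattern held for 109 clusters (0.574%) and the opposite one for 83 (0.437%). Taken singly, wild type lay wholly below empty vector in 12% of clusters and wholly above in 11%, and R396Q wholly below in 7.23% and wholly above in 6.97%. In 731 clusters none of the 3 groups overlapped. The most frequent order among these put R396Q between wild type and empty vector, with wild type lowest in 226 and highest in 201. Wild type lay between empty vector and R396Q in 72 and 40. The genes just inside the limit were Sptbn1 (-0.663 with wild type and 0.309 with R396Q), Spcs2 (-0.343 and 0.319) and Casp8 (-0.32 and 0.39). Just outside it lay Atp7a (0.298 and -0.538), E2f6 (0.295 and -0.422) and Reps1 (-0.295 and 1.099).

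Among the genes lower with wild type, 14 encode transcription factors and other nuclear proteins, with a median difference of -0.54 with wild type and 0.55 with R396Q. Erg, an ETS factor that maintains stem cells, read 9.19, 9.25 and 9.19 with empty vector, 7.61, 7.79 and 7.38 with wild type and 10.10, 9.63 and 9.68 with R396Q. Its wild-type arrays were 3.06-fold lower in the mean (difference -1.62, SE 0.15) and its R396Q arrays 1.51-fold higher (0.59, SE 0.15), with no overlap of groups. Fli1, its closest measured relative, which often binds the same ETS letters, took another course: it rose with both forms, by 0.86 with wild type (1.81-fold, adjusted p = 0.00039) and by 0.55 with R396Q (1.47-fold, adjusted p = 0.008). Fli1 also was lower with R396Q than with wild type, by a small margin (-0.31, adjusted p = 0.0223).

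Pparg, the nuclear receptor of fat storage and macrophage lipid handling, read 6.72, 7.09 and 7.41 with empty vector, 5.63, 5.68 and 6.06 with wild type and 7.62, 8.13 and 8.65 with R396Q. Each group spread widely, with SDs of 0.34, 0.23 and 0.51, and the lowest R396Q array lay 0.21 above the highest empty-vector array. Ppara lay below the array's lower quartile in all groups. Etv5, an ETS factor of the PEA3 type induced by receptor tyrosine kinase signaling, had its wider difference with R396Q: 8.50, 8.54 and 8.89 against 7.59, 7.59 and 7.52 with empty vector and 6.81, 7.22 and 7.33 with wild type. Its relative Etv4 stayed between 4.92 and 5.26 on all 9 arrays. Zfp521, a zinc finger cofactor of immature blood cells, read 6.56, 7.05 and 6.77 with empty vector, 5.86, 6.5 and 6.29 with wild type and 7.55, 7.48 and 7.76 with R396Q.

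Both Smad1 and Smad5, which carry the bone morphogenetic protein signal from receptor to nucleus, belonged to this group. Smad1 read 7.66, 7.75 and 7.66 with empty vector, 6.83, 6.73 and 6.86 with wild type and 8.31, 8.00 and 7.88 with R396Q. Smad5 read 9.22, 9.22 and 9.17, then 8.73, 9.07 and 8.52, then 9.83, 10.14 and 9.91 in the same order of groups. Wild type took Smad1 further from the empty-vector mean (-0.88, SE 0.11) and R396Q took Smad5 further (0.75, SE 0.14). Smad4, the shared partner of all receptor-activated Smads, fell with wild type by 0.40 (SE 0.06, adjusted p = 0.00761); with R396Q it read 0.18 higher without passing the test (adjusted p = 0.276), and the difference between the forms passed (0.58, adjusted p = 0.00268). Smad9, the other Smad of this branch, lay below the lower quartile in all groups. Of the transforming growth factor branch, Smad2 fell slightly with wild type (-0.27, adjusted p = 0.0432) and Smad3 read 0.40 higher without passing (adjusted p = 0.136). The inhibitory Smad7 rose with wild type (0.65, adjusted p = 0.046).

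The remaining nuclear proteins included Simc1, a SUMO-binding protein, at 8.58, 8.72 and 8.53 with empty vector, 7.40, 7.67 and 7.24 with wild type and 9.49, 10.04 and 9.22 with R396Q. Its promoter is 1 of the 3 shown above for genes lower with wild type. Top3b, a topoisomerase that also acts on RNA, had the same value of 11.49 on all 3 empty-vector arrays, 10.99 to 11.10 with wild type and 11.83 to 12.14 with R396Q. Xpc, which finds DNA damage for nucleotide excision repair, read 9.36, 9.55 and 9.37, then 8.83, 8.77 and 8.81, then 10.03, 9.73 and 10.08. It was the only one of 26 measured p53 response genes in the group. Of these 26, 7 rose and 1 fell with wild type (12 and 2 with the block). With R396Q 0 passed by limma, with or without the block, against 4 at an unadjusted p under 0.05 (3 higher, 1 lower). Over all clusters 4.64% rose and 4.35% fell with wild type, and 0.66% and 0.569% with R396Q. With the block 17.4% and 3.0% passed in either direction. The same shares are the background of the gene lists below. The heat shock factor Hsf2, the bromodomain protein Brd1, the RNA polymerase III factor Gtf3c6, the nuclear pore protein Nup210 and Hmgn2l6, a relative of the chromatin protein Hmgn2 whose probes could also read that gene, completed the set. Their wild-type differences ran from -1.03 (Hsf2) to -0.36 (Hmgn2l6).

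Surface proteins numbered 8 among the genes lower with wild type. Cd48, a SLAM family receptor used to separate stem cells from their progeny, was among the brightest genes, at 14.23, 13.92 and 14.67 with empty vector, 13.08, 13.15 and 13.12 with wild type and 15.58, 15.65 and 16.08 with R396Q. Its wild-type mean was 2.23-fold lower (-1.16, SE 0.20) and its R396Q mean 2.83-fold higher (1.5, SE 0.20). The wild-type arrays agreed closely (SD 0.04), and gaps of 0.76 and 0.91 separated the groups. No other SLAM gene of the 9 measured met the rule. Slamf1 (CD150), the second marker of that stem cell scheme, rose with both forms, by 3.58 with wild type (11.9-fold, adjusted p = 0.00339) and 3.25 with R396Q (9.54-fold, adjusted p = 0.0188). Ly9 fell with both, by 2.83 (adjusted p = 0.00078) and 1.93 (adjusted p = 0.0153).

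Gpr65, a receptor that senses acid outside the cell, read 8.75, 9.75 and 8.68 with empty vector, 5.71, 5.35 and 5.37 with wild type and 9.81, 10.64 and 10.09 with R396Q. The wild-type arrays lay far below (12-fold in the mean), while the lowest R396Q array cleared the highest empty-vector array by only 0.06. Sort1, a sorting receptor between the Golgi and endosomes, read 10.68, 11.04 and 10.79, then 9.29, 9.45 and 9.44, then 11.81, 11.73 and 11.41. Its relative Sorl1 also fell with wild type (-3.01, adjusted p = 0.00898), and its R396Q arrays read 0.82 below empty vector, which did not pass (adjusted p = 0.542) and passed with the replicate number as a block (adjusted p = 0.0209).

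Epha7, a receptor for ephrins, had the widest R396Q difference of all 96 genes. It read 5.43, 5.62 and 5.62 with empty vector, 4.61, 5.02 and 5.12 with wild type and 7.84, 7.64 and 7.19 with R396Q, a 4.0-fold higher mean with R396Q. The wild-type values lay close to the dim end of the arrays, whose lower quartiles started at 4.54. None of the other 12 Eph receptors measured met the rule; among them, Ephb6 had the widest R396Q difference at 0.44 (adjusted p = 0.359). Plxnd1, a semaphorin receptor, read 9.56, 9.50 and 9.57 with empty vector, 8.53, 7.47 and 8.07 with wild type and 10.10, 10.14 and 10.13 with R396Q. Kcnq5, a potassium channel, lay 0.64 lower with wild type and 0.64 higher with R396Q, and the cytokine Tnfsf8 (CD30 ligand) and the adhesion protein Ninj1 lay 0.40 and 0.39 lower with wild type.

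**Figure D2:**
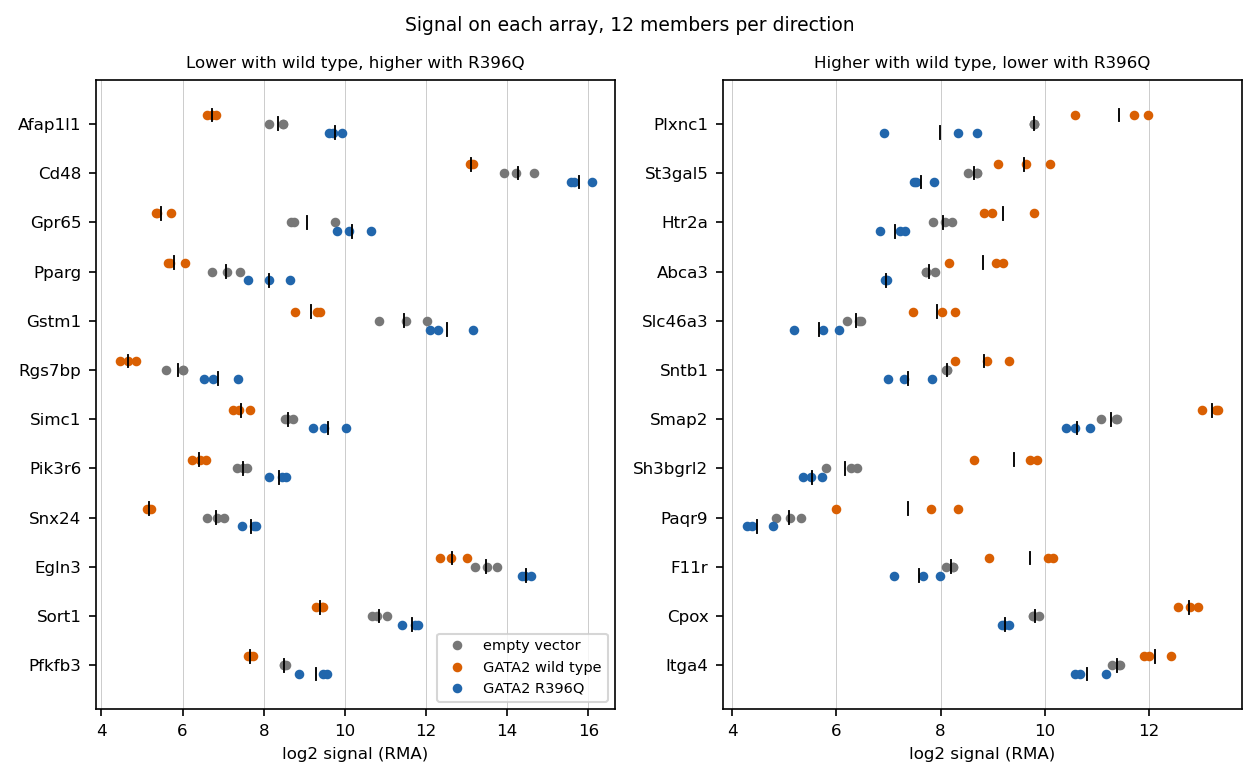
Log2 signal on each array (x axis) for the 12 genes per direction whose lesser difference was widest; dots are the 3 arrays of each group and ticks the group means. Empty-vector dots sit between the forms in each row, with wide gaps for Afap1l1 (1.31 and 1.15) and a narrow one for Gpr65 on the R396Q side (0.06).

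Signaling proteins made up 11 of the genes lower with wild type. Pik3r6, a regulatory subunit of the phosphoinositide 3-kinase driven by G protein-coupled receptors, read 7.5, 7.35 and 7.59 with empty vector, 6.58, 6.44 and 6.22 with wild type and 8.55, 8.44 and 8.12 with R396Q. Its 3 groups were apart by more than the range of any of them. The alternative subunit Pik3r5 fell with wild type (-1.38, adjusted p = 0.0165) and read 0.55 below empty vector with R396Q (adjusted p = 0.44). The catalytic subunit Pik3cg read 0.24 and 0.49 higher, neither past the test (adjusted p = 0.481 and 0.323).

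Vav3, an exchange factor that acts below immune receptors, read 9.58, 9.55 and 9.43 with empty vector, 7.34, 7.54 and 7.84 with wild type and 10.43, 9.89 and 9.95 with R396Q. Its wild-type mean was 3.86-fold lower and its R396Q mean 1.49-fold higher. Vav1 and Vav2 read below empty vector with both forms, by 0.61 and 0.54 with wild type and by 0.29 and 0.45 with R396Q, none past the test (adjusted p of 0.0828, 0.149, 0.576 and 0.409). With the block, Vav1 passed with wild type (adjusted p = 0.00682). Rgs7bp, an anchor of G protein regulators at the membrane, was dim at 5.6, 6.02 and 6.02, then 4.66, 4.45 and 4.86, then 6.52, 7.37 and 6.75. Lax1, an adapter below antigen receptors, spread from 5.95 to 6.89 with empty vector, 5.47 to 5.87 with wild type and 7.15 to 7.26 with R396Q.

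The receptor kinase Grk3 and beta-arrestin 1, which act in turn to silence G protein-coupled receptors, lay in opposite groups. Grk3 read 8.17, 8.20 and 8.13 with empty vector, 7.79, 7.88 and 7.79 with wild type and 8.55, 8.66 and 8.27 with R396Q. Arrb1 read 9.45, 9.24 and 9.45, then 10.60, 10.20 and 10.64, then 9.19, 8.96 and 9.02. Wild type therefore stood lowest for Grk3 and highest for Arrb1, by -0.34 and 1.09. Of the other measured kinases, Grk5 read 1.30 higher with wild type and 0.25 lower with R396Q (adjusted p = 0.0901 and 0.865). Grk6 read 0.43 and 0.27 higher, and Grk4 0.09 and 0.02 higher, none past the test. Grk2 and Arrb2 were not measured. Dusp2, a phosphatase of MAP kinases, Ppp3cc, a calcineurin subunit, Appl1, an endosomal adapter, Camk2g, a calcium-dependent kinase, Casp8, the initiator protease of death receptors, and Tbc1d4, a Rab regulator of glucose transporter traffic, had wild-type differences from -0.73 (Dusp2) to -0.32 (Casp8).

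Enzymes of metabolism made up 10. Pfkfb3, which makes the activator of phosphofructokinase and so drives glycolysis, read 8.49, 8.55 and 8.49 with empty vector, 7.67, 7.61 and 7.73 with wild type and 9.56, 8.86 and 9.46 with R396Q. Pygl, which releases glucose units from glycogen, read 10.62, 10.28 and 10.78, then 10.22, 9.62 and 9.96, then 11.30, 10.97 and 11.34. Both lay between the forms with empty vector, and for Pygl the wild-type and empty-vector arrays came within 0.06 of each other. The relatives Pfkfb4, Pygb and Pygm did not pass the test with either form.

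Egln3, the prolyl hydroxylase that is itself induced by low oxygen and marks HIF for decay, was bright at 13.74, 13.21 and 13.51 with empty vector, 12.34, 12.61 and 13 with wild type and 14.60, 14.36 and 14.45 with R396Q. Egln1, the main oxygen sensor of the family, fell with wild type (-1.61, adjusted p = 0.00331) and read 0.11 higher with R396Q (adjusted p = 0.876). Egln2 read within 0.02 of empty vector with both. Of 28 glycolysis and hypoxia genes measured, 3 rose and 4 fell with wild type, with a list median of -0.20 against -0.01 over all clusters. With R396Q, 0 of the 28 passed by limma and 4 had an unadjusted p under 0.05 (3 higher, 1 lower); with the block 1 passed.

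Of 7 mu class glutathione transferases, which conjugate glutathione to toxic compounds, 2 met the rule. Gstm1 read 12.03, 11.50 and 10.85 with empty vector, 9.39, 8.76 and 9.32 with wild type and 13.15, 12.29 and 12.10 with R396Q. Gstm3 read 6.69, 6.48 and 6.46, then 5.70, 5.83 and 6.37, then 7.14, 6.97 and 6.94. Gstm2, whose gene lies between these in gene order, rose with wild type (1.26, adjusted p = 0.00919), as did Gstm5 (1.47, adjusted p = 0.00796). These genes are close copies of each other, so how far a probe set reads only its own gene is uncertain. Ampd2, an AMP deaminase beyond Gstm4 in the same row of genes, lay 0.45 lower with wild type and 0.79 higher with R396Q. Lclat1 (cardiolipin remodeling), Kdsr (sphingolipid synthesis), Uxs1 (UDP-xylose synthesis) and Echdc3 had wild-type differences from -0.78 (Lclat1) to -0.34 (Uxs1).

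A further 11 belong to the secretory route, endosomes and lysosomes. Laptm4b, a lysosomal membrane protein, had the widest wild-type fall of the 64 genes: it read 10.79, 10.88 and 11.17 with empty vector, 6.07, 6.89 and 6.61 with wild type and 11.65, 11.27 and 11.59 with R396Q. That is 21.5-fold lower with wild type (-4.43, SE 0.22) and 1.47-fold higher with R396Q (0.56, SE 0.22), with a gap of 0.10 between the highest empty-vector and the lowest R396Q array. Laptm4a and Laptm5 read within 0.34 of empty vector with both forms. Snx24, a sorting nexin, and Ppic, a cyclophilin of the secretory pathway, are next to each other in gene order with no gene between. Snx24 read 7.01, 6.6 and 6.85, then 5.16, 5.12 and 5.21, then 7.47, 7.82 and 7.76. Ppic read 12.95, 12.36 and 13.44, then 11.26, 11.22 and 11.67, then 13.61, 13.48 and 13.80, and its empty-vector arrays spread most.

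Cst7 (cystatin F), an inhibitor of lysosomal proteases in granule-bearing immune cells, was very even within groups: 14.73, 14.68 and 14.71 with empty vector, 13.99, 14.17 and 13.92 with wild type and 15.79, 15.98 and 16.07 with R396Q. Here R396Q differed more (1.24, SE 0.09) than wild type (-0.68, SE 0.09). Cst7 was the only member among 32 measured neutrophil genes, of which 12 fell and 1 rose with wild type, and 1 fell and 2 rose with R396Q (with the block 20 fell with wild type and 3 with R396Q). The summed signal of the 4 neutrophil markers Elane, Mpo, Csf3r and Mmp8 (log2) was 17.86 to 18.22 with empty vector, 12.93 to 15.37 with wild type and 16.45 to 17.91 with R396Q. This sum follows mostly Mpo, the brightest of the 4. With R396Q, Elane, Mpo, Csf3r and Mmp8 differed from empty vector by -1.95, -0.53, -2.22 and -2.39. Of these, Mmp8 passed by limma (adjusted p = 0.0315), and Csf3r passed only with the block (adjusted p = 0.039). The 4 markers were thus low with Cst7 in the wild-type arrays, and their R396Q means were lower than with empty vector where Cst7 was higher. Their part in the result was not tested. The remaining genes here were Bace1, a membrane protease, Galnt3, which starts O-linked sugar chains, Ckap4, a sheet protein of the endoplasmic reticulum, Pigx, of GPI anchor synthesis, Spcs2, of the signal peptidase, Tm6sf1, and Dtnbp1, of lysosome-related organelles. Bace1 had 1 value, 7.99, on all empty-vector arrays, and Galnt3 was 4.64-fold lower with wild type.

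Of the 6 cytoskeletal genes, Afap1l1, an actin filament-associated protein, was the clearest of all 64. It read 8.14, 8.47 and 8.47 with empty vector, 6.82, 6.73 and 6.6 with wild type and 9.71, 9.62 and 9.94 with R396Q. Its wild-type mean was 3.12-fold lower (-1.64, SE 0.12) and its R396Q mean 2.63-fold higher (1.40, SE 0.12), and gaps of 1.31 and 1.15 separated the groups. Ablim1, an actin-binding protein, read 6.70 on each empty-vector array, 6.1 to 6.27 with wild type and 7.18 to 7.35 with R396Q. Coro7, of Golgi actin, Septin6, Ift57, of cilia, and Sptbn1, a spectrin, lay between -1.02 (Ift57) and -0.66 (Sptbn1) with wild type. Outside any role used here stood Ankrd44, Snn, Arl14ep and Trim16, with wild-type differences of -0.61 to -0.36.

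Turning to the 32 genes higher with wild type, surface proteins again numbered 8. Plxnc1, the plexin that receives semaphorin 7A on blood cells, was the only one with both differences over 1. It read 9.80 on each empty-vector array, 11.97, 11.72 and 10.58 with wild type and 8.70, 8.33 and 6.91 with R396Q. The means lay 3.08-fold above (1.62, SE 0.53) and 3.54-fold below (-1.82, SE 0.53), and the replicate 3 arrays stood apart from the others in both forms, nearer to empty vector with wild type and further with R396Q. Plxnd1 showed the opposite pattern above, and Plxnb2, another plexin, fell with both forms (-2.05, adjusted p = 0.0154, and -2.48, adjusted p = 0.0292). Plxna2 rose slightly with wild type (0.42, adjusted p = 0.00749) and read 0.19 lower with R396Q (adjusted p = 0.261). Plxna1 read 0.56 higher with wild type and 0.64 lower with R396Q, neither past the test (adjusted p = 0.325 and 0.449). The 9 plexins thus included members of both patterns and 1 that fell with both forms.

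Itga4, the alpha4 integrin by which progenitors hold to VCAM1 and fibronectin, read 11.44, 11.42 and 11.29 with empty vector, 12.42, 11.99 and 11.91 with wild type and 11.18, 10.67 and 10.57 with R396Q. Of its beta partners, Itgb7 rose with wild type (1.64, adjusted p = 0.0122) and read 0.02 higher with R396Q (adjusted p = 1.0), and Itgb1 stayed within 0.05 of empty vector. Of 45 integrin and adhesion genes measured, Itga4 and Cd48 met the rule, in opposite directions; 10 of the 45 rose and 7 fell with wild type, and 3 rose and 1 fell with R396Q (with the block 2 fell). F11r (JAM-A), a junctional adhesion protein of platelets and leukocytes, read 8.24, 8.10 and 8.24, then 10.16, 8.93 and 10.07, then 7.98, 7.11 and 7.66. F11r and Cd48 lie 5 genes apart in gene order and had opposite patterns, with Ly9 among the genes between them. The 4 megakaryocyte markers Itga2b, Pf4, Gp9 and Vwf had a summed log2 signal of 12.15 to 13.69 with empty vector, 15.90 to 15.99 with wild type and 12.71 to 13.73 with R396Q. This sum follows mostly Pf4, the brightest of the 4, with means of 13.03, 15.84 and 12.78. With R396Q, Itga2b differed from empty vector by 1.23, and Pf4, Gp9 and Vwf by -0.25, -0.12 and -0.15. The part of the 4 markers in the values of F11r was not tested.

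Tfr2, a transferrin receptor that senses iron in the erythroid lineage, read 7.29, 7.37 and 7.33 with empty vector, 8.93, 8.28 and 8.16 with wild type and 7.22, 6.83 and 6.33 with R396Q. Its lowest-differing R396Q array came within 0.07 of the empty-vector arrays. Tfrc, the receptor of bulk iron uptake, did not pass the test with either form (0.25 and -0.02, adjusted p = 0.845 and 1.0). Htr2a, a serotonin receptor, read 7.85, 8.21 and 8.08, then 8.84, 8.98 and 9.80, then 6.83, 7.22 and 7.31. Paqr9 was dim, with a mean of 4.48 with R396Q, below the lower quartile of the arrays, and its wild-type arrays spread from 5.99 to 8.33. Tspan6 and the membrane protease Mmp14 completed the set, and the wild-type arrays of Mmp14 ran from 6.23 to 8.04.

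Enzymes of metabolism numbered 7 and included Ces2g, with the widest wild-type difference of the 32. Cpox, which makes protoporphyrinogen in heme synthesis, read 9.78, 9.88 and 9.78 with empty vector, 12.79, 12.55 and 12.94 with wild type and 9.32, 9.17 and 9.21 with R396Q. Its wild-type mean was 7.72-fold higher (2.95, SE 0.10) and its R396Q mean 1.5-fold lower (-0.58, SE 0.10), and each group was narrower than the gaps between groups. Its promoter, shown above, holds the overlapping pair of GATA letters. Alad rose with wild type (2.02, adjusted p = 0.00617) and read 0.02 higher with R396Q (adjusted p = 1.0). Fech rose with wild type (1.27, adjusted p = 0.00347) and read 0.37 higher with R396Q (adjusted p = 0.40). Alas1, the housekeeping form of the first enzyme, fell with wild type (-1.87, adjusted p = 0.0105) and read lower with R396Q (-1.11), which did not pass (adjusted p = 0.172) and passed with the block (adjusted p = 0.0361). Alas2, the erythroid form, rose with wild type (1.13, adjusted p = 0.0467) and read 0.11 higher with R396Q (adjusted p = 0.933). Uros rose slightly with wild type (0.42, adjusted p = 0.0121) and differed by -0.05 with R396Q (adjusted p = 0.837). Urod read 1.00 higher with wild type, which passed only with the block (adjusted p = 0.0944, and 0.0111 with it), and differed by -0.13 with R396Q (adjusted p = 0.925). Ppox did not pass with either form.

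Cpox and Tfr2 were the members among 31 heme and iron genes measured. Of the 31, 11 rose and 1 fell with wild type (14 and 3 with the block), with a list median of 0.46. With R396Q the list median was -0.15; 0 passed by limma, 9 had an unadjusted p under 0.05 (6 lower, 3 higher) and 1 was lower with the block. The summed log2 signal of the erythroid markers Klf1, Car1, Aqp1 and Epor was 7.77 to 8.22 with empty vector, 13.44 to 14.44 with wild type and 7.84 to 8.54 with R396Q. These markers were thus high with Cpox and Tfr2 in the wild-type arrays and not lower with them in the R396Q arrays; their part in the result was not tested.

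Ces2g, a carboxylesterase, stood at 7.75, 7.61 and 7.69 with empty vector, 13.61, 13.73 and 14.15 with wild type and 7.53, 7.36 and 6.77 with R396Q. That is 71.1-fold higher with wild type (6.15, SE 0.22) and 1.38-fold lower with R396Q (-0.46, SE 0.22). The R396Q 3 array lay lowest, and the R396Q 1 array came closest to empty vector. Among its 5 measured relatives, Ces2b, Ces2e and Ces2f rose with wild type, by 0.83, 0.73 and 0.27 (adjusted p = 0.0291, 0.00268 and 0.00422), and read 0.11, 0.06 and 0.02 higher with R396Q. Ces2a and Ces2h did not pass with either form. The Ces2 genes are close copies of each other, so the smaller values are uncertain.

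Aldh1a1, the retinal dehydrogenase whose activity is used to sort stem cells, read 5.57, 5.41 and 5.55 with empty vector, 8.90, 7.55 and 8.18 with wild type and 4.82, 5.05 and 4.96 with R396Q. Aldh1a2 and Aldh1a3 did not pass the test with either form. St3gal5, which makes the ganglioside GM3, read 8.52, 8.70 and 8.70, then 9.63, 9.10 and 10.10, then 7.5, 7.52 and 7.87, and differed by nearly equal amounts in both directions (0.97 and -1.0, SE 0.24). None of the other 5 sialyltransferases of its family met the rule. St3gal2 read 0.37 higher with wild type and 0.44 lower with R396Q, neither past the test (adjusted p = 0.391 and 0.493). St3gal1 rose with both forms (1.36, adjusted p = 0.00846, and 1.48, adjusted p = 0.0234). St3gal4 rose with wild type (1.44, adjusted p = 0.00399) and read 0.59 higher with R396Q, which passed only with the block (adjusted p = 0.224, and 0.0289 with it). St3gal6 rose with wild type (1.17, adjusted p = 0.0107) and read 0.13 lower with R396Q (adjusted p = 0.849), and St3gal3 did not pass with either form (0.44 and 0.32). Catalase (Cat) and the fatty aldehyde dehydrogenase Aldh3a2 had the narrowest lesser differences, 0.43 and 0.33 with wild type and -0.32 each with R396Q, and the lipid enzyme Agpat3 lay 1.20 higher with wild type.

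Transporters and channels made up 5. Abca3, a lipid pump of lysosome-like bodies, read 7.73, 7.72 and 7.89 with empty vector, 9.07, 8.16 and 9.2 with wild type and 6.96, 6.93 and 6.97 with R396Q. The R396Q arrays agreed closest and the wild-type 2 array lay nearest to empty vector. Clcn3, an endosomal chloride-proton exchanger, had a wider difference with R396Q (-1.14, SE 0.22) than with wild type (0.46, SE 0.22). Its R396Q arrays read 8.15, 7.74 and 7.47 against 8.98, 8.93 and 8.87 with empty vector, and its wild-type arrays 9.78, 9.05 and 9.32. Slc46a3, a lysosomal transporter, Trpm4, a calcium-activated channel, and Pxmp2, a peroxisomal pore, lay 1.55, 0.46 and 0.42 higher with wild type.

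The 6 signaling genes were Smap2, Sntb1, Pip4k2a, Bcar3, Arhgap29 and Arrb1. Smap2, which regulates Arf GTPases at the Golgi, read 11.36, 11.39 and 11.08 with empty vector, 13.33, 13.28 and 13.01 with wild type and 10.87, 10.40 and 10.57 with R396Q. Sntb1, a syntrophin, read 8.12, 8.11 and 8.12, then 9.31, 8.27 and 8.90, then 7.84, 6.99 and 7.30. Bcar3, an adapter of integrin signaling, and Arhgap29 lie 3 genes apart in gene order, and were 1.23 and 0.76 higher with wild type. Pip4k2a, a phosphoinositide kinase, was 1.00 higher.

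The 6 remaining genes included Sh3bgrl2, at 6.29, 5.81 and 6.40 with empty vector, 9.85, 8.65 and 9.72 with wild type and 5.37, 5.52 and 5.73 with R396Q, where a gap of only 0.08 separated R396Q from empty vector. Fbxo9, a subunit that selects proteins for ubiquitination, was tight at 10.37, 10.37 and 10.35, then 11.29, 11.34 and 11.20, then 9.69, 9.98 and 9.98. Phlda2, an imprinted growth regulator, was 7.79-fold higher with wild type (2.96) and 1.35-fold lower with R396Q (-0.43). Cpeb4, which controls translation through the poly(A) tail, Wdr35, of ciliary transport, and Lgalsl, a galectin relative, lay 1.10, 1.07 and 1.15 higher with wild type.

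**Figure D3:**
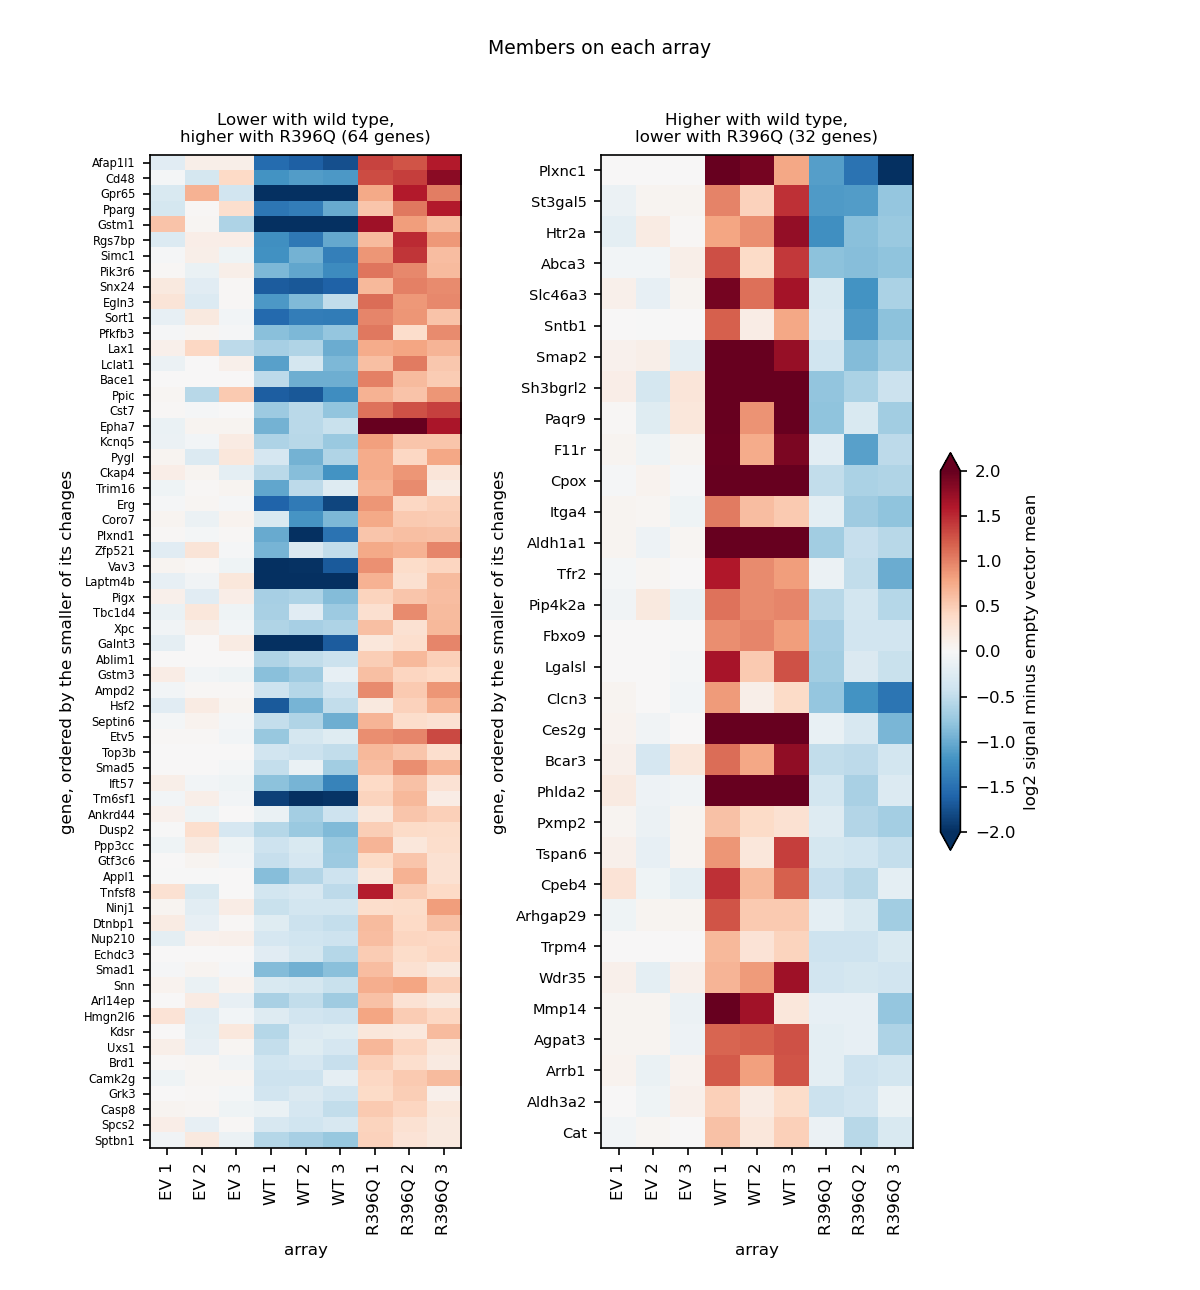
All 96 genes (rows) on the 9 arrays (columns), coloured by log2 signal minus the gene's empty-vector mean, from -2 (blue) to 2 (red), with wider values shown at the end colours. Wild type and R396Q columns have opposite colours in each row; among the 32 genes at right, the wild-type 2 column is the palest (median 0.83, against 1.23 and 1.27).

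The arrays of a form did not contribute equally. Wild type 2 was the wild-type array nearest to empty vector in 19 of the 32 genes higher with wild type, against 5 and 8 for the others, while in the 64 genes lower with wild type the counts were 23, 21 and 20. The R396Q 3 array was nearest in 32 of those 64. Gaps between the groups were often narrow: a gap under 0.1 on at least 1 side occurred in 24 of the 64 and 12 of the 32 genes. Both gaps reached 0.3 in 19 and 6. Both gaps exceeded the range of every group in 9 genes lower with wild type (Afap1l1, Cd48, Pik3r6, Snx24, Bace1, Cst7, Kcnq5, Ablim1 and Top3b) and in Cpox and Fbxo9 among those higher with it. Bace1, Ablim1 and Top3b had 1 value on all 3 empty-vector arrays, so no empty-vector spread was measured for them.

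**Figure D4:**
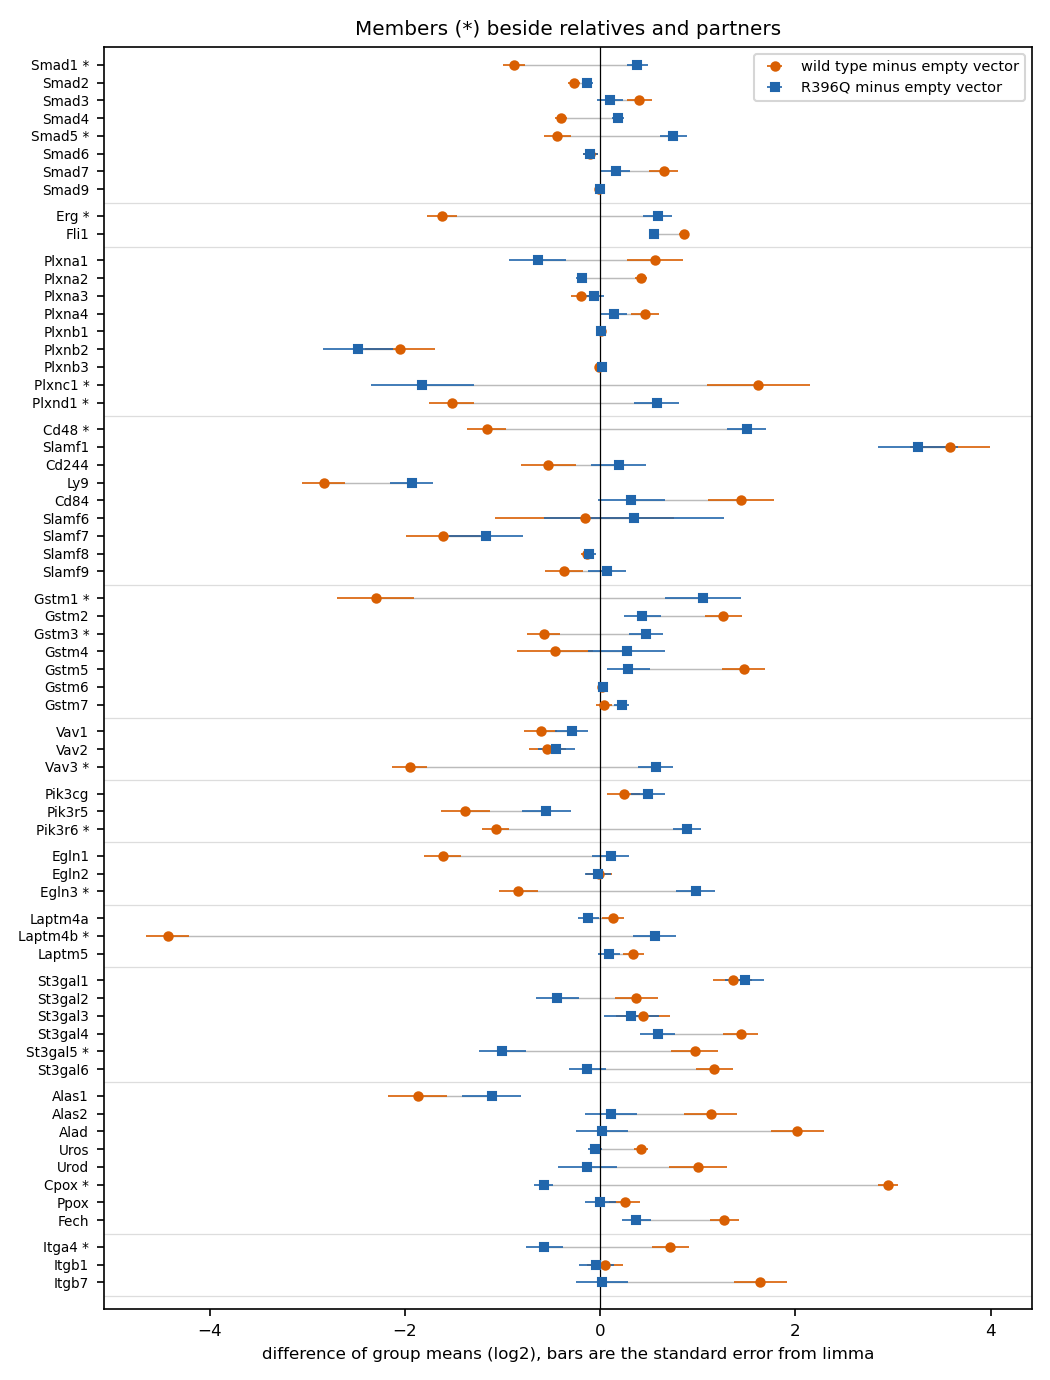
Differences from empty vector (x axis, log2) with wild type (circles) and R396Q (squares) for members (*) and their relatives or partners; bars are the standard error from limma. Smad1 and Smad5, Erg, Plxnc1 and Plxnd1, Cd48, Vav3, Pik3r6, Laptm4b, St3gal5 and Cpox have the 2 symbols on opposite sides of 0, while Fli1, Plxnb2, Slamf1, Ly9 and St3gal1 have both on the same side.

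Leaving out 1 replicate number gave counts from arrays that had not entered the choice of the clusters counted. The rule was applied to the 6 arrays of 2 numbers, and the clusters so found were read in the 3 arrays of the number left out. These clusters are not the same set as the 96 genes. With number 1 left out, 98 clusters were lower with wild type and higher with R396Q, and 83 of them (84.7%) had both signs again in number 1, where 13.8% of all clusters had that pair of signs. With number 2 left out, 87 of 110 (79.1%) kept both signs against 10.9%, and with number 3 left out 113 of 134 (84.3%) against 11.5%. For the opposite pattern the counts were 60 of 82 (73.2% against 11.1%), 56 of 90 (62.2% against 10.5%) and 50 of 64 (78.1% against 12.7%). With numbers 1, 2 and 3 left out, 53, 59 and 60 of the chosen clusters of the first pattern were among the 96 genes. For the opposite pattern 29, 31 and 27 were. The share over all clusters takes in dim and tied clusters, so it is not a level set by chance. The empty-vector array of the number enters both signs, which makes opposite signs rarer over all clusters and so lowers the share set beside each count. All 9 arrays were normalized together, and the arrays left out here had also chosen the 96 genes. These are therefore counts without a p-value and no replication of the 96 genes.

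The sign with R396Q was the one lost more often. With number 2 left out, 87 of the 90 clusters higher with wild type kept that sign but 59 kept the lower R396Q value. Their median R396Q difference was -0.42 in the choosing numbers and -0.23 in the number left out, while the wild-type median was 1.11 and 0.97. With number 1 left out the R396Q median went from -0.49 to -0.22, and with number 3 from -0.49 to -0.41. In the clusters lower with wild type the R396Q medians were 0.56, 0.55 and 0.56 in the choosing numbers and 0.53, 0.51 and 0.43 in the number left out.

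**Figure D5:**
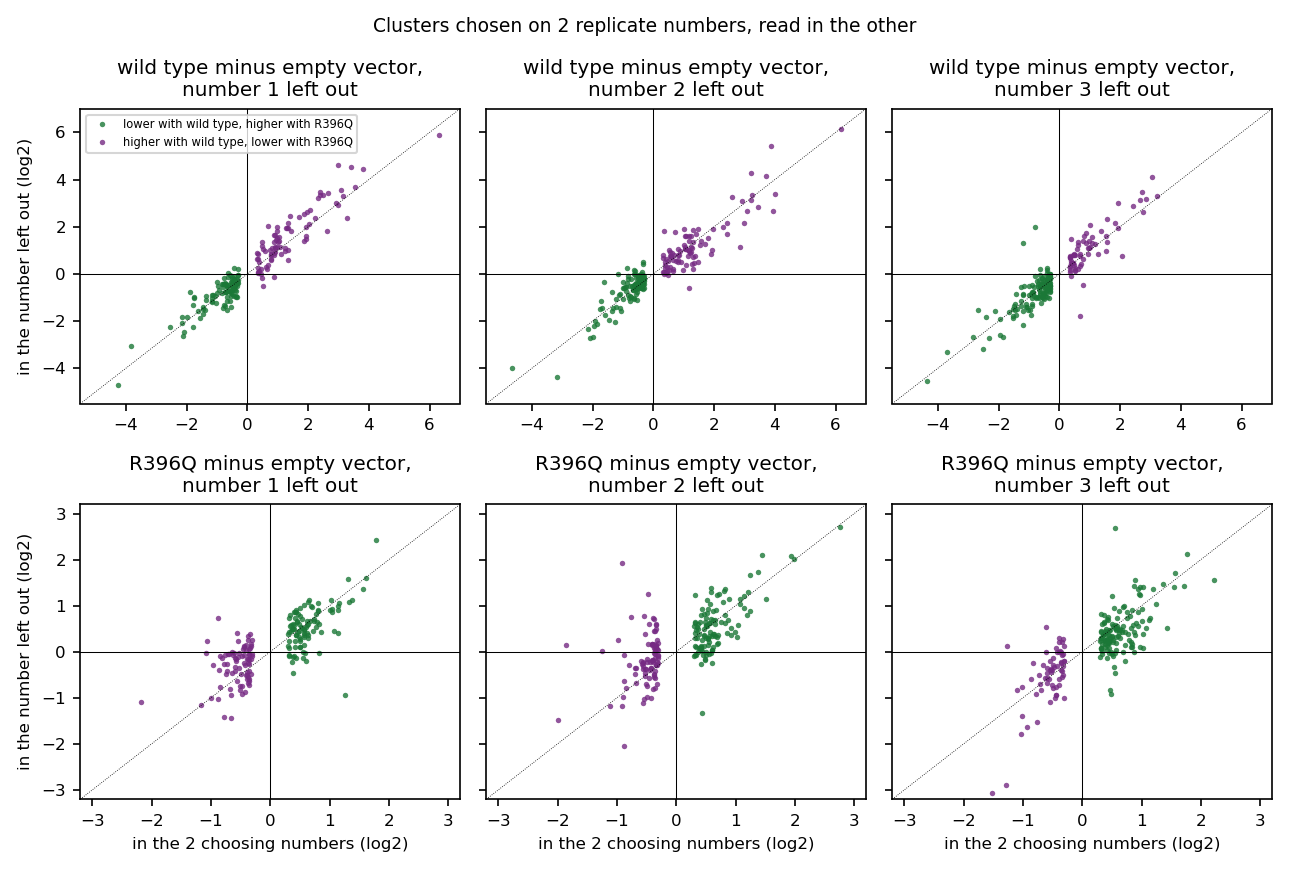
Log2 difference from empty vector in the 2 choosing numbers (x axis) against that in the replicate number left out (y axis), 1 panel per form and number; points are the clusters chosen without that number and the dotted line marks equal values. Wild-type points (top) mostly keep their sign, and R396Q points (bottom) of the pattern higher with wild type scatter above 0 most often, with 59 of 90 kept below 0 for number 2.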

How the data were processed

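RNA was measured on 9 arrays, 3 per group. Per the submitters' processing notes, the deposited values are log2 signals that Affymetrix Expression Console computed by RMA (robust multiarray average), a single value for each array and transcript cluster. Neither its version nor the genome build is given in the sources used here. The array type named in the labels (Mouse Exon 1.0 ST) differs from the later type that the identifiers of the clusters look like, so no array coordinates are given. All 9 columns were used and 0 left out. Symbols came from the array annotation: 18992 clusters had 1 symbol, 1390 several and 690 none, and 18236 of the first were matched to a RefSeq gene table. That table renamed Sept6 to Septin6 and Adrbk2 to Grk3, and gave the gene order.

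The members, gene lists, families and roles were chosen with earlier results of these data known, and families and roles after the values were seen, so no list or family was tested. Genes were named by a rule: Gata2, the 12 members per direction with the largest lesser difference, members of the 29 gene lists and the 3 genes on each side of the limit. Other members are described by role, and their relatives singled out, after their values were seen.

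All 21072 clusters were fitted with limma 3.58.1 in R 4.3.3 (1 mean per group, 6 residual and 0.956 prior degrees of freedom), 2-sided, with Benjamini-Hochberg adjustment over all clusters and a threshold of 0.05. The fit was checked on simulated data whose arrays varied independently, so the check does not cover arrays that deviate together. No filter on low values was set, and all 96 members entered the fit. Arrays with the same replicate number deviated together from their group means (r of 0.451 to 0.693 over 9 pairs, against -0.537 to -0.09 over 18 pairs with different numbers). Such deviations cancel within each group, which pushes pairs with different numbers to negative r, so the second range is no independent contrast. The labels do not say what the number marks, and it was added as a block as an alternative. Other alternatives were limits of 0.2 and 0.5, median subtraction, quantile normalization, filters on dim clusters, leaving out each array, limma's trend and robust options and, added after seeing the data, only clusters with at least 6 distinct values. The number of arrays limits the precision. RMA can give arrays of a cluster the same value, and the empty-vector arrays held a tie in 15 of the 64 and 11 of the 32 members. The share of all clusters with such a tie is not given, so nothing is read from these counts.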

Additional observations from a re-analysis of the deposited data

How the results depend on the processing

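The 64 genes lower with wild type became 33 at a limit of 0.5 and 133 with the replicate block, where each form is set against the empty-vector array of its own number (all 64 shared); leaving out an array in turn gave 70 to 89, since fewer arrays must then be apart. The 32 genes higher with wild type became 53 at a limit of 0.2, 14 at 0.5 and 83 with the block, and 33 to 71 with an array left out (51 without empty vector 1, 71 without empty vector 2, 54 without R396Q 1, sharing 30, 31 and 31). Median subtraction gave 79 and 29 and quantile normalization 60 and 36, sharing 61, 27, 51 and 31 with the lists described. Members past the limma threshold in wild type against empty vector numbered 56, 75 with the block and 34 to 48 with an array left out (34, 36 and 36 without empty vector 1, 2 and 3). Calls over all clusters numbered 1285 to 1724 with an array left out, against 1894 with none left out. In R396Q against empty vector, members past the threshold numbered 14, 23 with the block and 5 to 9 with any array left out, where calls over all clusters numbered 85 to 304 against 259. Without empty vector 2, 7 members passed while the calls over all clusters were 304, and the cause was not tested. In R396Q against wild type, members past the threshold numbered 93, 96 with the block and 75 to 90 with an array left out. Calls over all clusters were then 650 to 1153, against 1211 with none left out. Over all clusters the block raised the calls from 1894, 259 and 1211 to 3667, 632 and 2750. Of 616 recomputed differences of 28 named members, 0 changed sign and 1 moved by more than the spread between replicates (Cst7 with R396Q, 1.06 under quantile normalization). The dimmest group means among the members were those of Paqr9 (4.48 with R396Q), Echdc3 (4.61 with wild type) and Rgs7bp (4.65 with wild type).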
